A study of Mus musculus with 357 samples.

Results

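Tie2 (TEK)-detected hematopoietic stem cells (HSCs) were set against stem cells of the same sort in which TEK was not detected. A cell counted as TEK-detected when its TEK reaction crossed the threshold no later than cycle 25 (threshold cycle, Ct), and as TEK-undetected when the Ct was later or no product formed. By this rule 199 cells, or 55.7% of all cells measured (95% interval 50.4 to 60.97%), were TEK-detected and the remaining 158 were TEK-undetected. An earlier Ct means more template, with about 1 doubling for each cycle. The groups were selected on the measured TEK Ct itself, and the TEK values below are a description of that choice.

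TEK encodes Tie2, the receptor tyrosine kinase for angiopoietins. It is best known from endothelial cells, where angiopoietin-1 activates it and steadies the vessel wall. In bone marrow it is also present on stem cells, and angiopoietin-1 from the niche has been linked to their quiescence and adhesion. The assays read RNA, so the Tie2 protein on the cell surface was not measured here. Of 12 genes listed for the Tie2 pathway (ligands, Tie1, adaptors and downstream kinases and transcription factors), 0 were among the 96 assays.

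All cells were bone marrow cells from mice of the genotype Col1a1-tetO-H2B-mCherry, in which a fluorescent histone is induced and then diluted by cell division. They were isolated after 2 or 5 weeks of chase and passed a sort for Lin-Sca1+c-kit+CD48-CD150+. At 2 weeks the cells filled 2 plates with 90 and 93 cells, and at 5 weeks they filled 2 plates with 91 and 83 cells. The transactivator that drives the tetO allele, the number of mice and the mCherry level of each cell were not given in the sources used here. Animals are not named in the labels, so each chase time stands for 1 sample and its plates may be technical repeats. No p-value was therefore computed, and the smallest two-sided exact p that signs over 4 plates allow is 0.13.

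TEK gave an early product or none in 335 cells. Products at Ct 18 or below came from 183 cells, 0 products fell between Ct 18 and 19, and 16 products were later than 18 but within the limit. Another 6 cells had a product beyond the limit and 152 had none. Just inside the limit lay products at Ct 24.3579 and 24.8597, and just outside lay 25.2276 and 25.2485. In TEK-detected cells the median TEK Ct was 15.9 and 15.8 on the 2-week plates and 14.9 and 14.8 on the 5-week plates.

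**Figure D1:**
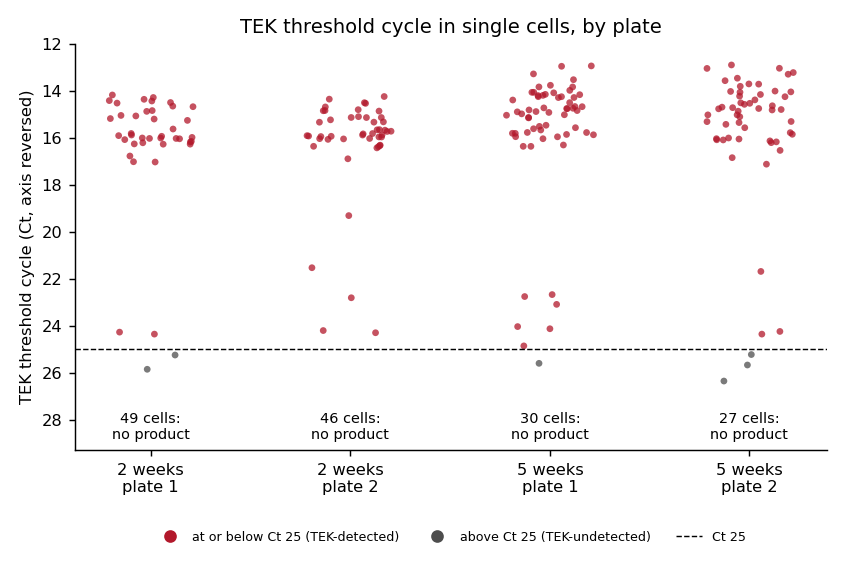
TEK threshold cycle of each cell with a product, by plate; each point is 1 cell, the axis is reversed so that more template lies higher, and the dashed line is the Ct 25 limit. The 183 early products form 1 band on every plate, with 16 late products between it and the limit.

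TEK was detected in more cells at 5 weeks than at 2 weeks. The share was 43.3% (95% interval 32.9 to 54.2%) on plate 1 and 50.5% (39.97 to 61.1%) on plate 2 at 2 weeks. At 5 weeks it was 65.9% (55.3 to 75.5%) on plate 1 and 63.9% (52.6 to 74.1%) on plate 2. Both 5-week plates lay above both 2-week plates, and over the cells of each time the shares were 86 of 183 (46.99%) and 113 of 174 (64.9%). All intervals are exact Clopper-Pearson intervals and cover counting error only. Because the share of TEK-detected cells moved with the chase time, differences below were taken within a plate. Shares pooled over plates are named as pooled.

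The sorted phenotype could be read in part from the assays. Kit, which encodes c-kit, was detected in all but 3 cells, and Cd48, whose protein was selected against, in 5 cells, all with products later than Ct 18. Ly6a, which encodes Sca1, was detected in 82.4% of all cells, and Slamf1, which encodes CD150, in 64.1%. Both proteins were selected for, so the RNA was not detected in every cell sorted as positive. Of 9 endothelial markers only vwf was measured, and vwf is also a megakaryocyte gene. None of 14 markers of mature blood cells and none of 4 stromal markers were among the assays. The part of any such cells in the results was not tested.

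TEK-detected cells carried slightly more template on average. Their mean Ct of Actb and Gapdh, a cytoskeletal and a glycolytic gene expressed in every cell here, was 11.5 ± 0.83 (SD over 39 cells) against 11.7 ± 0.47 (51 cells) on 2-week plate 1. The difference, TEK-detected minus TEK-undetected, was -0.27 cycles there, -0.01 on the second 2-week plate, and -0.34 and -0.22 on the 5-week plates. Its mean of -0.21 cycles was smaller than the spread between cells of 1 group on any plate. TEK-detected cells also had products in more of the 95 other assays, by 2.60, 1.22, 0.20 and 1.05 assays on the same plates. The last of these rested on 1 TEK-undetected cell with 27 products, without which it was 0.03, a setting added after the data were seen. The calls below were the same without that cell. In the third of cells with the lowest Actb and Gapdh Ct on each plate, TEK was detected in 60.0%, 48.4%, 83.3% and 78.6%, against 50%, 48.4%, 54.8% and 60.7% in the third with the highest. Cells between these had 20.0%, 54.8%, 60.0% and 51.9%. On 5-week plate 1 the share fell steadily as the Actb and Gapdh Ct rose, and the other plates showed no steady order. The cells with the lowest Ct still had the highest share on 2-week plate 1 and 5-week plate 2. On 2-week plate 2 the cells between had the highest share. Calls were made as measured and again with the cell's mean Ct of Actb and Gapdh as a covariate within the plate. Differences of assays that were not called are as measured unless the covariate is named, and the plot of plate differences shows both.

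**Figure D2:**
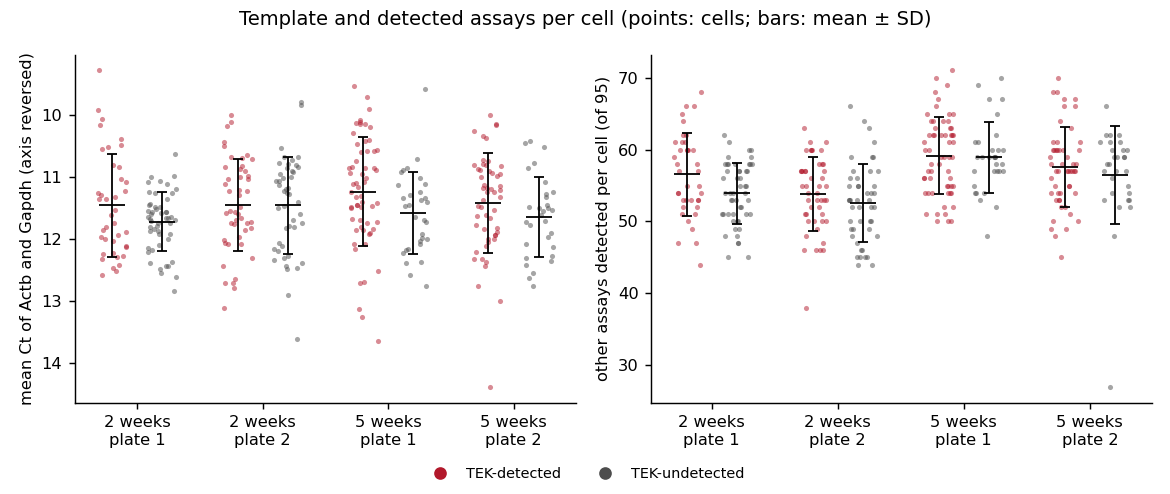
Mean Ct of Actb and Gapdh (left, axis reversed) and number of other assays with a product (right) in TEK-detected and TEK-undetected cells of each plate; points are cells and bars are mean ± SD. The groups overlap widely on every plate, with the TEK-detected mean at a lower Ct by 0.01 to 0.34 cycles.

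Few assays separated TEK-detected from TEK-undetected cells. An assay was called higher or lower when the share of cells with a product differed in the same direction on all 4 plates and by at least 10 percentage points on average. Of 67 assays detected in 5 to 95% of cells, 3 were called higher in TEK-detected cells (4.48%) and 1 lower (1.49%). The higher ones were Itga2b, CDK2 and ndn, and the lower one was Flt3. With Actb and Gapdh allowed for, 1 assay was called higher (1.49%), Itga2b, and 1 lower (1.49%), Flt3. The median difference over the 67 assays was 1.07 points as measured and 0.27 points with the covariate, with quartiles of -1.04 and 4.12 points as measured. When only the direction was asked, 6 assays (8.96%) were higher on all 4 plates and 3 (4.48%) lower.

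**Figure D3:**
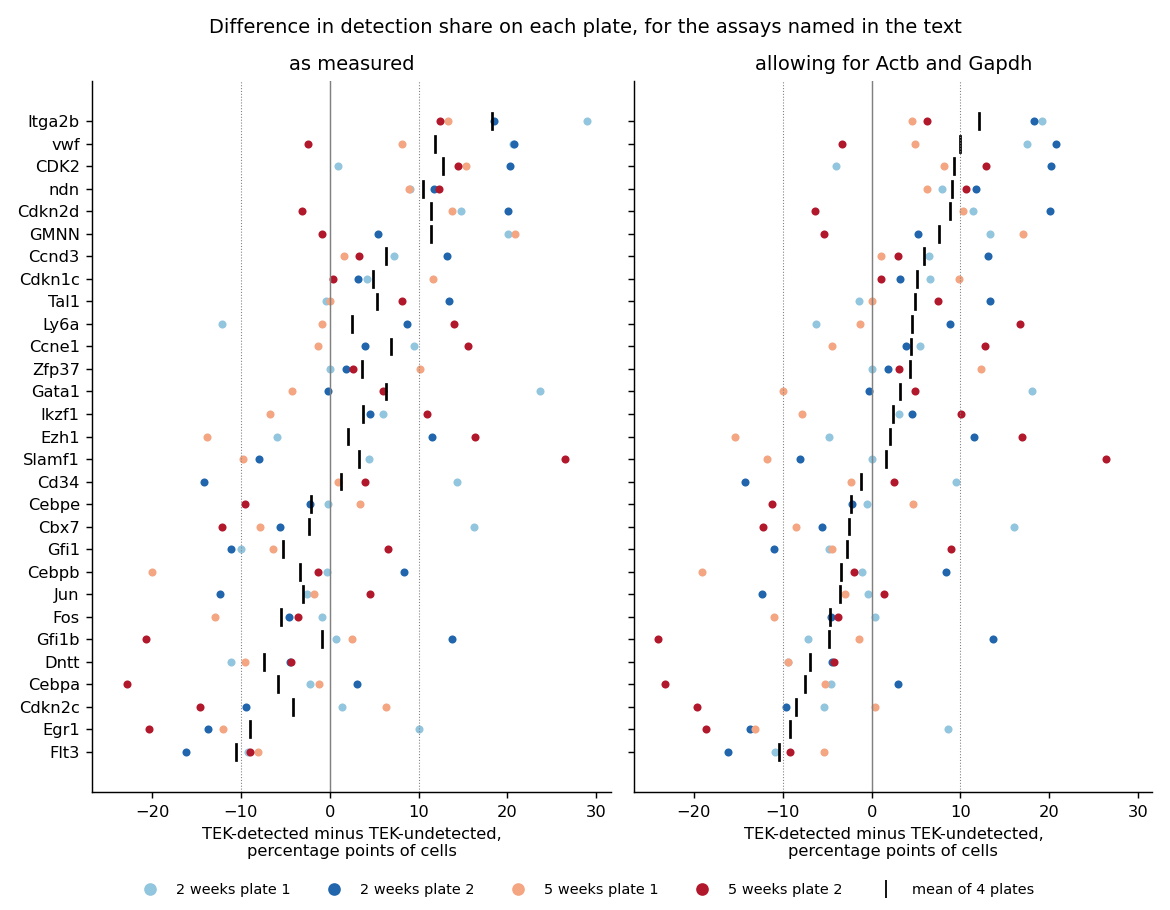
Difference in detection share between TEK-detected and TEK-undetected cells, in percentage points, on each of the 4 plates (coloured points) with their mean (bar), as measured on the left and with Actb and Gapdh as covariate on the right. Dotted lines mark 10 points. Itga2b, ndn, Ccnd3 and Cdkn1c lie to the right of 0 and Flt3 and Dntt to the left of 0 on all 4 plates in both panels. Most assays straddle 0.

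Itga2b showed the widest gap. It encodes CD41, the integrin alpha IIb chain of megakaryocytes and platelets, which some stem cells also carry. A product was found in 22 of 39 TEK-detected cells (56.4%) against 14 of 51 TEK-undetected cells (27.5%) on the first 2-week plate. The second 2-week plate had 23 of 47 (48.9%) against 14 of 46 (30.4%). On the 5-week plates it was found in 37 of 60 (61.7%) against 15 of 31 (48.4%) and in 26 of 53 (49.1%) against 11 of 30 (36.7%). TEK-detected cells were higher on every plate, by 12.4 to 28.96 points, with a mean of 18.3 ± 7.61 points (SD over 4 plates). The 95% intervals of the 2 groups overlapped on every plate.

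The Itga2b gap was smaller with template allowed for and smaller still among early products. Allowing for Actb and Gapdh, the difference was 19.2 and 18.3 points on the 2-week plates but 4.59 and 6.23 points on the 5-week plates, with a mean of 12.1. Without 2-week plate 1 the mean was 9.71 points, under the size asked, and without 2-week plate 2 or with the TEK limit at Ct 18 Itga2b was not called with the covariate either. Of the 162 Itga2b products, 86.4% came after Ct 18. Counting only products at Ct 18 or below left 18 TEK-detected and 4 TEK-undetected cells with Itga2b, a mean difference of 5.73 points, and a difference of -4.57 points on 5-week plate 1.

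The TEK level was described among cells that had it, with no bearing on the calls, since TEK values chose the groups. Here the TEK level was minus the TEK Ct, fitted with the mean Ct of Actb and Gapdh as covariate and not subtracted. Among the 183 cells with TEK at Ct 18 or below, those with Itga2b had a TEK level higher by 0.19, 0.33, 0.33 and 0.56 log2 units on the 4 plates. The mean was 0.35, the highest of the 44 assays examined in this way, beside their median of 0.05. Of the 44 assays, 6 went with a higher TEK level on all 4 plates and 3 with a lower one. For Ezh1, a Polycomb methyltransferase, the mean was 0.33, and for Slamf1, which encodes CD150, 0.29. On 2-week plate 1 the mean TEK Ct was 15.5 ± 0.85 (SD, 21 cells) with Itga2b and 15.6 ± 0.78 (16 cells) without, so the difference there lay well within the spread between cells.

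Flt3 ran the other way. It encodes the cytokine receptor that marks multipotent and lymphoid-primed progenitors. It was detected in 35.9% of TEK-detected and 45.1% of TEK-undetected cells on the first 2-week plate, then 44.7% and 60.9% on the second. On the 5-week plates the shares were 50% and 58.1%, then 37.7% and 46.7%. The share was lower in TEK-detected cells on every plate, by a mean of -10.6 ± 3.76 points, and by -10.4 points with Actb and Gapdh allowed for. The mean lay only just past 10 points, and without 2-week plate 2 it was -8.73 points and Flt3 was not called. Nor was it called with the TEK limit at Ct 23 or 18, or with the detection limit at Ct 23. With products at Ct 18 or below only, 5-week plate 1 turned to +2.63 points.

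Joint states of these genes were examined after their values had been seen. Flt3 without Itga2b was found in 39 of 199 TEK-detected cells (19.6%, 95% interval 14.3 to 25.8%) and in 61 of 158 TEK-undetected cells (38.6%, 30.98 to 46.7%). The difference was -19.3, -28.7, -7.37 and -16.4 points on the 4 plates, and -15.2 points on average with Actb and Gapdh allowed for. Itga2b without Flt3 was found in 31.2% of pooled TEK-detected and 20.3% of pooled TEK-undetected cells. Both products together were found in 23.1% and 13.9% of the pooled cells. Their mean plate difference was 7.34 points as measured, with -0.70 on 5-week plate 1. Cells with neither product made up 26.1% and 27.2% of the pooled cells. Flt3 without Itga2b had a mean of -17.9 points as measured, close in size to the 18.3 points of Itga2b, and only -2.36 points on 5-week plate 1 with the covariate. The state was built from the called genes, so its direction was fixed in part by their choice.

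**Figure D4:**
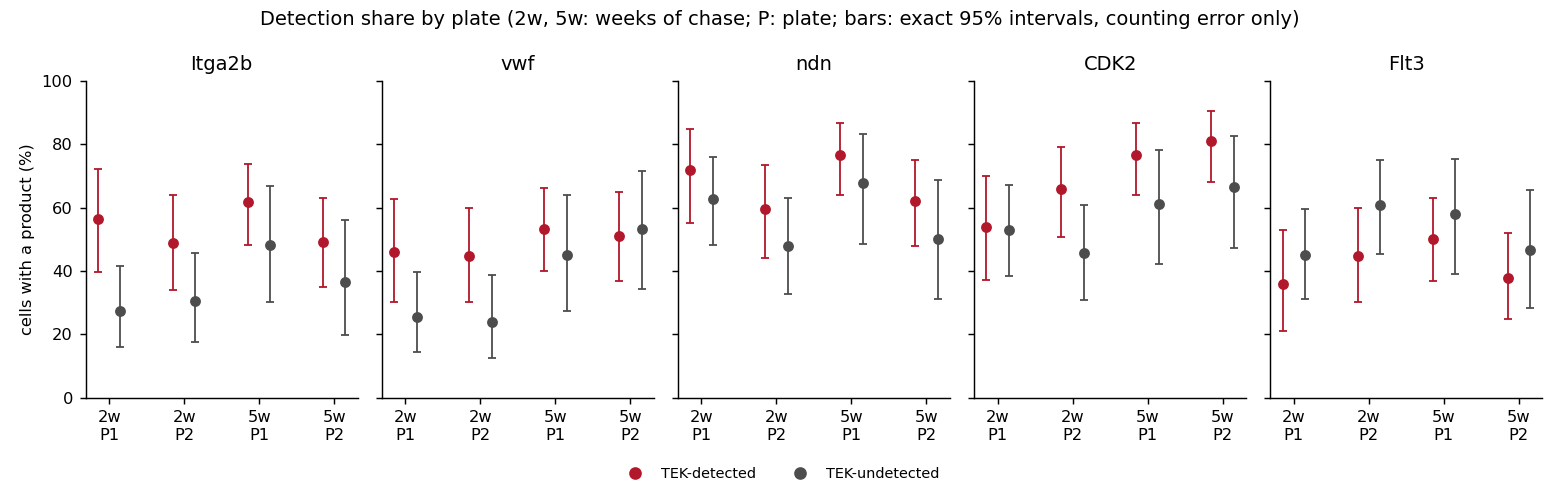
Share of cells with a product of Itga2b, vwf, ndn, CDK2 and Flt3 in TEK-detected and TEK-undetected cells on each plate, with exact 95% intervals that cover counting error only. Itga2b, ndn and CDK2 are higher and Flt3 lower in TEK-detected cells on all 4 plates; vwf is higher on 3 plates and most apart on the 2-week plates.

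Megakaryocyte and erythroid genes numbered 9 among the assays, with 6 in the detection range and 1, Itga2b, called higher, beside 4.48% of all assays as measured and 1.49% with the covariate. The median difference of the 6 was 6.68 points as measured and 3.02 with Actb and Gapdh allowed for, against 1.07 and 0.27 over all assays. The gene vwf encodes von Willebrand factor, the platelet and endothelial adhesion protein that marks platelet-biased stem cells. It was detected in 46.2% against 25.5% and in 44.7% against 23.9% of TEK-detected and TEK-undetected cells on the 2-week plates. On the 5-week plates the shares were 53.3% against 45.2% and 50.9% against 53.3%. The mean difference of 11.8 points passed the size asked, but the last plate had the opposite sign, so vwf was not called. Without that plate, the only one of opposite sign, the mean was 16.5 points, and 14.4 with the covariate. The call of vwf without it therefore followed from the choice of plate. Cdkn2d and GMNN, described below, were also called higher in both forms without it. None of its products came after Ct 18, so the vwf values were the same at every detection limit tried.

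The transcription factors of this list followed no common direction. Gata1, the erythroid and megakaryocyte regulator, was found in 10 of 39 TEK-detected but 1 of 51 TEK-undetected cells on 2-week plate 1, a difference of 23.7 points. On the other plates its differences were -0.23, -4.25 and 5.97 points. Gfi1b, a repressor needed for the same lineages, ranged from -20.6 to 13.8 points, higher on 3 plates as measured and on 1 with the covariate. Pooled over the 4 plates, Itga2b together with vwf was found in 29.6% of TEK-detected and 15.8% of TEK-undetected cells. The differences were 22.9 and 14.7 points on the 2-week plates and 4.41 and 4.53 points on the 5-week plates. This pair was also chosen after its values were seen.

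Of 8 lymphoid genes measured, 5 were in the detection range and 1, Flt3, was called lower, beside 1.49% of all assays. Dntt, the terminal transferase of early lymphoid cells, was rare in both groups. It was found in 1, 3, 2 and 3 TEK-detected cells and in 7, 5, 4 and 3 TEK-undetected cells on the 4 plates. Its difference was negative on all plates with a mean of -7.39 points, short of the size asked, and 96.4% of its 28 products came after Ct 18. Ikzf1, which encodes the lymphoid factor Ikaros, had 3.73 points with opposite signs among plates. The median over the list was 0.33 points.

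None of the 7 granulocyte and monocyte genes was called by share, and their median was -2.11 points. Cebpa, the transcription factor that starts the granulocyte programme, was called by level instead. The level is the mean Ct of Actb and Gapdh minus the Ct of the gene, in log2 units, among cells with a product. Of 73 assays with enough such cells, 1 was called lower in TEK-detected cells (1.37%), Cebpa, and 1 higher (1.37%), where a call asked for the same sign on all 4 plates and 0.5 on average. The median level difference over the 73 assays was -0.02.

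The Cebpa level was -6.32 ± 2.83 (SD, 32 cells) in TEK-detected and -5.94 ± 2.62 (43 cells) in TEK-undetected cells on 2-week plate 1, and -6.82 ± 3.0 (28 cells) against -6.00 ± 2.29 (26 cells) on 2-week plate 2. On the 5-week plates it was -6.48 ± 2.61 (38 cells) against -5.23 ± 2.69 (20 cells), then -6.89 ± 3.30 (25 cells) against -6.26 ± 3.0 (21 cells). TEK-detected cells had the lower mean on all 4 plates, with differences from -1.25 to -0.38 log2 units and a mean of -0.77 ± 0.37. With the TEK limit at Ct 23 or 18 the mean was under 0.5 in size and Cebpa was not called. At 18 the assay called lower was Runx1t1, which encodes a transcriptional corepressor and is named after its values were seen. Each plate difference was smaller than the spread between cells of either group. Late products made up 37.3% of Cebpa products, and among products at Ct 18 or below the mean difference was -0.24. The Cebpa share differed by -22.8 points on 5-week plate 2 and by -2.26, 3.05 and -1.18 points on the others. Cebpb and Cebpe, relatives that act in inflammation and late granulocyte maturation, had -3.32 and -2.11 points with mixed signs, and the repressor Gfi1 had -5.20 points with 1 plate positive.

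**Figure D5:**
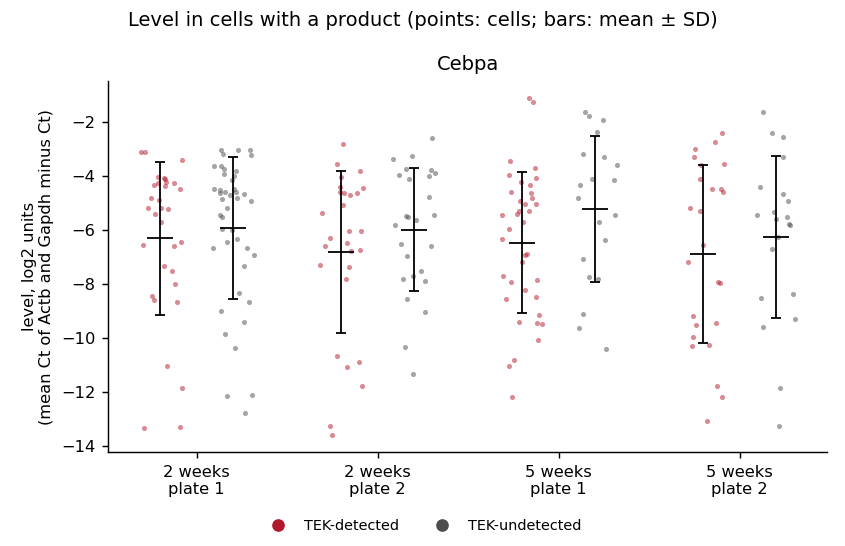
Level of Cebpa in cells with a product, in log2 units relative to the mean Ct of Actb and Gapdh, for TEK-detected and TEK-undetected cells of each plate; points are cells and bars are mean ± SD. The TEK-detected mean is lower on all 4 plates, with differences from -1.25 to -0.38 log2 units, within widely overlapping cells.

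Stem cell genes mostly did not separate the groups. Of 20 measured HSC-associated genes, 9 were in the detection range for shares. By share 1 was called higher as measured, ndn, beside 4.48% of all assays, and 0 with the covariate, beside 1.49%. Tal1, a master regulator of blood formation, had 5.28 points with plates from -0.45 to 13.5. Zfp37, a zinc finger gene, had 3.67 points with plates from 0 to 10.2. The 0 came from 2-week plate 1, where every cell of both groups had a product, so no difference could show. On the other plates its shares ran from 6.45 to 22.6%.

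The gene ndn encodes necdin, a growth suppressor and p53 target that is present in quiescent stem cells. It was detected in 71.8% against 62.7% and in 59.6% against 47.8% of TEK-detected and TEK-undetected cells on the 2-week plates, and in 76.7% against 67.7% and 62.3% against 50% on the 5-week plates. The difference was the steadiest of those called, 8.92 to 12.3 points with a mean of 10.5 ± 1.76. With the covariate it was 6.25 to 11.7 points with a mean of 9.10, short of a call. Without 5-week plate 2 the mean as measured was 9.91. With the covariate ndn was called higher at TEK limits of Ct 23 and 18, and without 5-week plate 1. At the TEK limit of Ct 18 it was the only assay called higher with the covariate. With the cells that had late TEK products left out of both groups, a setting added after the data were seen, ndn differed by 13.3 points as measured and 11.9 with the covariate. At a detection limit of Ct 18 for ndn itself, 2-week plate 1 had -7.24 points. Its level did not follow its share, with a mean difference of -0.26.

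Cell cycle genes were mostly not called. Of 9 measured, 7 were in the detection range, and 1 was called higher as measured, beside 4.48% of all assays, and 0 with the covariate, beside 1.49%. Their median was 6.33 points as measured and 4.39 with the covariate, and a TEK-detected cell had products of 0.38 to 0.48 more of the 9 genes on each plate, or 0.15 to 0.42 with the covariate. CDK2, the kinase that works with cyclin E at the entry to S phase, was found in 53.8% against 52.9%, 65.96% against 45.7%, 76.7% against 61.3% and 81.1% against 66.7% of TEK-detected and TEK-undetected cells on the 4 plates. The first plate showed almost no gap (0.91 points) and the others 14.5 to 20.3 points. With the covariate the first plate turned to -4.03 points, and with the TEK limit at Ct 18 the mean as measured was 9.64 and CDK2 was not called.

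Cyclins and the licensing inhibitor geminin gave smaller or uneven differences. Ccnd3, which encodes the G1 cyclin D3, was higher on all 4 plates by 1.56 to 13.2 points, with shares of 80.4 to 100% in both groups. GMNN, which encodes geminin, differed by 20.1 and 20.9 points on plate 1 of each time but by 5.41 and -0.82 on plate 2 of each time. Cdt1, the licensing factor that geminin binds, was lower on 3 plates and had 1.77 points as measured and -2.33 with the covariate. Ccnd1 and CDK6, a cyclin and kinase of G1, turned from 2.40 and 1.81 points as measured to -1.65 and -0.47 with the covariate. As measured, CDK6 had 7.54 and 6.66 points on the 2-week plates but -5.22 and -1.76 on the 5-week plates. Cdt1, Ccnd1 and CDK6 were named after their values were seen. Ccne1, which encodes cyclin E1, was found in 42 cells and had 6.92 points with plates from -1.34 to 15.5.

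Inhibitors of the cycle had differences of either sign. Of 12 genes of the inhibitor and p53 list, 10 were in range and 1, ndn, was called higher as measured, beside 4.48% of all assays, with a median of 3.57 points. Cdkn2d, which encodes the CDK4 and CDK6 inhibitor p19, had 14.8, 20.1 and 13.8 points on the first 3 plates and -3.08 on 5-week plate 2. Cdkn1c, which encodes p57, was higher on all 4 plates but by only 4.85 points, from 0.38 to 11.6. Cdkn2c, which encodes p18, had -4.09 points as measured and -8.55 with the covariate, with plates from -19.6 to 0.43.

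The RNAs of the sorted surface proteins did not follow TEK in 1 direction. Slamf1 (CD150) had 4.37, -7.96, -9.73 and 26.5 points, and its level was higher in TEK-detected cells on all 4 plates by 0.25 on average, below the size asked. Ly6a, which encodes Sca1, had -12.1, 8.74, -0.86 and 14.03 points. Cd34, a sialomucin of progenitors, had 14.3, -14.2, 0.91 and 4.03 points, with a mean of 1.27 as measured and -1.16 with the covariate. Kit differed by 0.84 points in share and -0.09 in level.

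Immediate early genes, which respond to stimulation and to cell handling, had a median of -5.51 points. Egr1, a zinc finger factor of this group that also restrains stem cell proliferation, was detected in 29.8% against 43.5%, 26.7% against 38.7% and 39.6% against 60.0% on 2-week plate 2 and the 5-week plates. On 2-week plate 1 it was detected in 51.3% against 41.2%, so it was not called. Without that plate, the only one of opposite sign, Egr1 was called lower, both as measured and with the covariate. Fos, an AP-1 subunit, was lower on all 4 plates by -5.51 points on average, and 50.5% of its products came after Ct 18. With the covariate 2-week plate 1 turned to 0.38 points. The Fos level ran opposite to its share, higher in TEK-detected cells by 1.04 log2 units on average. Its plates ran from -0.28 to 1.93, so Fos was not called by level. Jun, its partner, had -3.0 points with mixed signs.

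The Polycomb genes showed no lean. Ezh1 had 2.06 points with plates from -13.8 to 16.4, and Cbx7, a chromobox reader of the repressive mark, had -2.30 points with plates from -12.1 to 16.3. Cbx6, a relative of Cbx7, was detected in 343 cells, over the range for a share, and had a level difference of 0.05.

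The remaining 28 assays could not separate the groups by share. Of these, 22 were detected in more than 95% of cells, 6 of them in every cell, and 6 in fewer than 5%, 2 of them in no cell. By level 20 of the other assays had too few cells with a product. Among the 67 assays in range, 63 were not called as measured and 65 not with the covariate, and the differences ran from -10.6 to 18.3 points.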

How the data were processed

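The authors deposited 1 table of Ct values that were not normalized, for 96 assays in single cells, with 999 for a reaction without a product. Per the labels' protocols, cDNA was pre-amplified for 22 cycles, diluted 5-fold and run for 30 cycles with EvaGreen on a microfluidic array. This dye binds double-stranded DNA of any sequence, and whether late products were specific was not tested. The software and quality rule behind the Ct were not given in the sources used here. Wells without a cell were not analysed here.

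A product counted as detected at Ct 25 or below. For each plate the share of cells with a product was compared between groups as measured, and by a least squares fit with the mean Ct of Actb and Gapdh as covariate. The 4 plate differences were averaged with equal weight. Levels needed at least 5 cells with a product in each group on every plate, and Actb and Gapdh were not called once they served as reference. The text names called assays, the sort and reference genes, and up to 4 members per list by the size of the adjusted share difference, plus assays chosen after their values were seen where so stated. A gene that this rule took is left out of the text and plots. The TEK rule, the gene lists and the comparisons were chosen with earlier results of these data known. No 2 cells had identical values. Assay names were matched to RefSeq symbols of GRCm38.p6, 82 as printed and 13 in another case or mark. The other, Sfpi, was kept as deposited. Alternatives were other Ct limits, call sizes, covariates and weights, and each plate left out. The steps were tested on simulated data. Python 3.11.15, pandas 2.3.3, numpy 2.4.6, scipy 1.17.1 and matplotlib 3.10.9 were used.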

Additional observations from a re-analysis of the deposited data

Results flagged for a closer look

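Jun, an AP-1 transcription factor subunit, had a level difference between TEK-detected and TEK-undetected cells of opposite sign at the 2 chase times. It was higher in TEK-detected cells on both 2-week plates, by 0.83 log2 units on average (1.25 and 0.42), and lower on both 5-week plates, by -0.70 on average (-1.35 and -0.05). The last of these is close to 0, and 18.8% of Jun products came after Ct 18.

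Tcf3, which encodes the lymphoid factor E2A, did the same with smaller values. Its level difference was 0.23 at 2 weeks (0.23 and 0.24) and -0.30 at 5 weeks (-0.40 and -0.20), while it was detected in all but 8 cells. By share as measured, 4 of the 67 assays in range had opposite signs at the 2 times, CDK6 among them. None of these differences between the times was tested, since each time is 1 sample with 2 plates.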

How the results depend on the processing

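Counts moved with late products, plates and call size. No called assay changed the sign of its mean, while Fos and Jun, which were not called, turned positive at a detection limit of Ct 18. With the TEK limit at Ct 23, assays called lower by share fell to 0 as measured and 0 with the covariate, those higher with the covariate became 2, and those lower by level 0. At a TEK limit of Ct 18, 0 were lower by share in both forms. A detection limit of Ct 23 left 0 lower in both forms, and one of Ct 18 left 0 higher in both forms and 0 lower as measured. Asking for 5 points gave 3 lower as measured, and 5 higher and 2 lower with the covariate. Asking for 15 points gave 1 higher and 0 lower as measured, and 0 and 0 with the covariate. A broader set of reference assays, and leaving out cells of extreme reference Ct, each left 0 lower with the covariate. For levels, a size of 0.25 gave 4 lower, and products at Ct 18 or below gave 0 higher and 0 lower. Leaving out cells with late TEK products (335 cells kept) gave 2 higher and 0 lower with the covariate, and 2 lower by level. Asking only for the same sign gave 6 higher and 3 lower as measured, and 6 and 2 with the covariate. Without the cell with the fewest products the counts were the same. The last 3 settings were added after the data were seen. Leaving out each plate in turn gave 3 to 5 higher and 0 to 2 lower as measured, 0 to 4 and 1 to 2 with the covariate, and 1 to 2 in each direction by level. The cause was not tested. The template differences held under all settings, from -0.27 to -0.16 cycles and from 0.82 to 1.62 assays without 1 plate. Both groups share every plate, and differences were taken within it, so the comparison was paired by plate. No paired test was run. Cell numbers of 30 to 60 per group and plate limit each share.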
